A study of Homo sapiens with 6 samples.

Results

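CDC20, UBE2C, UBE2S, FBXO5, PTTG1 and ESPL1 encode regulators and targets of the anaphase promoting complex (APC/C), and they were taken as the rows of the authors' deposited table that carry these symbols. All 6 were found, among 6831 genes in the table. The cells were of the MOLM-13 line, a human acute myeloid leukaemia culture that carries a KMT2A fusion and is labelled wild type. They received either the solvent DMSO (3 libraries) or 50 nM DEG-35 (3 libraries) for 24 h, and the series title calls DEG-35 a dual degrader, of the transcription factor IKZF2 and the kinase CK1α. Both groups are of the same line, so they speak for 1 leukaemia cell line and 1 dose and time. The table holds fold changes with their p-values and no value per library, so levels, spread by library and the line's marker genes could not be examined here. Nothing in the labels ties the libraries to separate cultures, and the p-values then measure only the spread between these libraries, which may be technical.

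The APC/C is a ubiquitin ligase of many subunits that marks mitotic proteins for destruction by the proteasome. CDC20 is the coactivator that brings substrates to it at the start of anaphase, and FZR1 (CDH1) takes over that task at the end of mitosis and in G1. UBE2C is the E2 enzyme that attaches the first ubiquitin molecules, and UBE2S extends them into chains. FBXO5 (EMI1) inhibits the complex from S phase until early mitosis. Securin, the product of PTTG1, holds the protease separase, the product of ESPL1, inactive. Once the APC/C has removed securin, separase cleaves the cohesin ring and the sister chromatids part. Transcripts of these genes are known to accumulate in cells that approach mitosis and to be low in resting cells.

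Because the transcripts moved together, the promoter sequences were examined for short motifs known from genes of late cell cycle phases. RefSeq windows of 300 bases on GRCh38.p14, from 250 before to 50 after an annotated start, were matched by symbol for 5 of the 6 genes, with 7 windows in all, and UBE2C had no entry. The submitters' processing notes name hg19 for the deposited values, so the windows serve as sequence only and none of the values refers to these coordinates. For the 4 genes with most matches, bases 150 to 21 before the start are shown 5′ to 3′ on the gene's strand. Capitals mark TTTGAA or TTCGAA (the cell cycle homology region, CHR) and CCAAT, on either strand, so that TTCAAA and ATTGG are matches read on the opposite strand.
CDC20, chr1:43358831-43358960, plus strand: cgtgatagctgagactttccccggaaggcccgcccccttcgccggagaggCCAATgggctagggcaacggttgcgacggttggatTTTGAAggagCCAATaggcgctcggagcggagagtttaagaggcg
ESPL1, chr12:53268149-53268278, plus strand: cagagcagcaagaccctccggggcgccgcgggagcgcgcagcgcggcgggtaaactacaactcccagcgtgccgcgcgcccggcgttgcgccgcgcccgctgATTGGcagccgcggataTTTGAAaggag
FBXO5, chr6:152983062-152983191, minus strand: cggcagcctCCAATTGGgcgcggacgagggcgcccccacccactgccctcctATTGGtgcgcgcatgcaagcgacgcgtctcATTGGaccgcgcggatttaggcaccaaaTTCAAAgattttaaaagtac
PTTG1, chr5:160421705-160421834, plus strand: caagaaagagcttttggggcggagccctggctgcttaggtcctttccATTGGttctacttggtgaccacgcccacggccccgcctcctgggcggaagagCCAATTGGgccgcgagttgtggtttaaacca

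CDC20, ESPL1 and FBXO5 each held a CHR letter match close to the start, with a CCAAT match nearby. The first base of the CHR match lay 65 bases before the start in CDC20, 31 in ESPL1 and 40 in FBXO5, on the opposite strand in the last. CDC20 held a further CHR match at 178 bases, outside the stretch shown. CCAAT matches began 100 and 55 bases before the start in CDC20 and 48 in ESPL1. FBXO5 had 4 of them, at 141, 138, 98 and 68 bases, of which the first pair overlap on opposite strands as CCAATTGG. PTTG1 held the same overlapping pair at 51 and 48 bases and another match at 103, without a CHR match, and its second window covers the same matches from a start further downstream. UBE2S had a single CCAAT match at 191 bases, and the second FBXO5 window had none of the motifs. Of all 35116 RefSeq promoter windows, 16.4% held a CHR match, 34.6% a CCAAT match and 6.38% both. The windows of the 5 genes matched held them in 3, 6 and 3 of 7, with the PTTG1 matches counted in both its windows. The E2F site letters TTTCCCGC, TTTCGCGC, TTTGCCGC and TTTGGCGC were found on either strand in 0 of the 7 windows and in 3.31% of all windows. A letter match describes the sequence and does not show that a factor binds there, nor does its absence show that none binds.

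**Figure D1:**
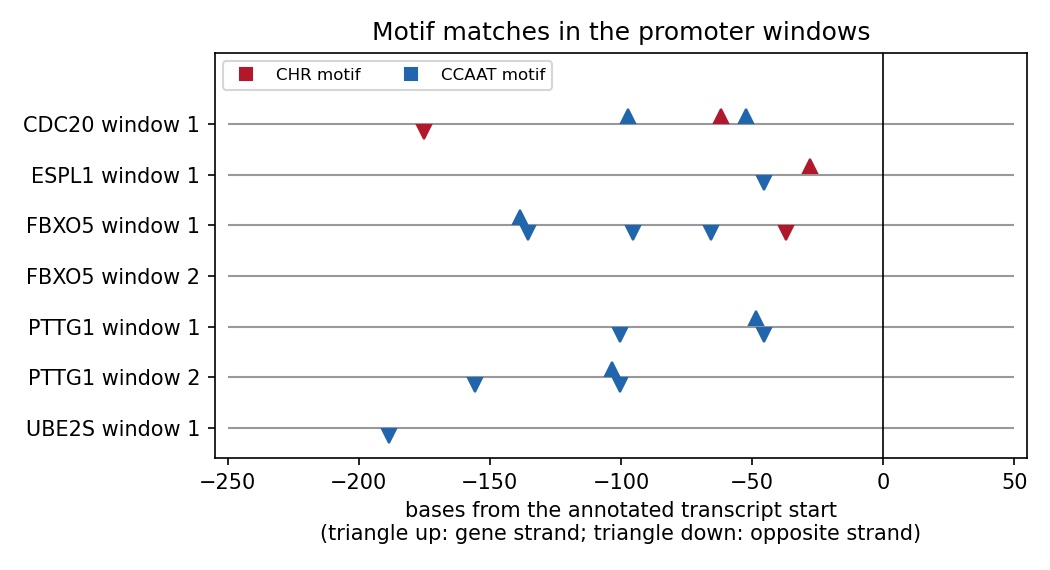
Positions of CHR (red) and CCAAT (blue) letter matches in the 7 RefSeq promoter windows, in bases from the annotated transcript start, with triangles pointing up for the gene strand and down for the opposite strand. CDC20, ESPL1 and the first FBXO5 window hold both motifs, PTTG1 and UBE2S hold CCAAT alone, and the second FBXO5 window holds neither.

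All 6 genes fell with DEG-35. The header of the authors' deposited table does not name the numerator, and the values are read here as DEG-35 over DMSO, so every direction would turn round under the other order. In that reading the p53 targets CDKN1A and MDM2 stood at 1.91 and 1.74 per the authors' deposited table. Of 15064 genes that the adjusted p-values imply were tested, 45.3% had an adjusted p below 0.05 and 24.0% were lower, against 6 of 6 here. Falls of at least 1 on the log2 scale were found for 4.08% of tested genes and for all 6 of these, and falls of at least 2 for 1.19% and for 3 of the 6. The 6 genes and the gene lists below were chosen with earlier results of these data known. Their counts beside these shares are descriptions and no test. The median log2 fold change was -2.16 over the 6 genes and -0.45 over the 3613 lower genes of the authors' deposited table. In bulk RNA, fewer cells in the phase that expresses a gene and less RNA of that gene per cell cannot be told apart.

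CDC20, the coactivator of anaphase onset, fell to 18.6% of its DMSO level. The authors' deposited table puts its log2 fold change at -2.42 ± 0.0726 (adjusted p = 8.65e-242), where the error is the standard error that the fold change and its p-value imply. The 95% interval ran from -2.57 to -2.28, a fall of 4.86-fold to 5.92-fold. By p-value CDC20 ranked 17 of all 6831 genes, the first of the 6, and its implied error was the smallest of them. FZR1, the coactivator of late mitosis and G1, also fell, by 0.87 ± 0.128 on the log2 scale in the authors' deposited table (adjusted p = 1.11e-10). CDC20 thus fell by 1.55 more than FZR1 on the log2 scale, with a 95% interval of 1.26 to 1.84 if both errors are independent. The 14 differences between genes that were computed all rest on this assumption, because the genes share the same 6 libraries and their covariance is unknown. Their intervals are not adjusted for the number of differences.

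The E2 enzymes of the complex both fell, and unequally. UBE2C, which starts the ubiquitin chains, was 5.75-fold lower, and the authors' deposited table puts it at -2.52 ± 0.0900 on the log2 scale (adjusted p = 8.63e-171). UBE2S, which elongates the chains, was 2.64-fold lower, at -1.40 ± 0.147 per the authors' deposited table (adjusted p = 4.07e-20). UBE2S kept 37.9% of its DMSO level (95% interval 31.1% to 46.3%) and UBE2C 17.4% (15.4% to 19.6%). The difference between them was 1.13 on the log2 scale, with an interval of 0.79 to 1.46.

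UBE2S was the least precisely measured of the 6 genes. Its implied error of 0.147 exceeded the median of 0.111 among the 80 genes whose log2 fold change lay within 0.1 of its own, whereas the other 5 had errors of 0.0726 to 0.0902. UBE2S overlaps RPL28, a ribosomal protein gene on the opposite strand, in GENCODE release 29. RPL28 rose by 0.32 ± 0.0777 on the log2 scale per the authors' deposited table (adjusted p = 1.47e-04). The sources used here do not say whether reads were counted by strand, and the part of RPL28 reads in the UBE2S value was not tested.

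Most other E2 enzyme genes that changed did so by less than UBE2C and UBE2S. Of 31 further genes of the family, 16 fell, 5 rose and 10 were absent from the authors' deposited table, either untested or short of its threshold. Thus 67.7% of the 31 were listed and 51.6% fell. Of all tested genes, 45.3% were listed, 24.0% fell and 21.4% rose. The median of the 21 listed was -0.25. The scaling factors are unknown, and a shift of every log2 fold change up by 0.3 would leave 8 of them lower and 13 higher. UBE2T, the E2 of the Fanconi anaemia pathway, was the 1 gene among them with a fall of at least 1, at -1.59 ± 0.0866 in the authors' deposited table (adjusted p = 1.94e-73). That value and the one for UBE2S differed by 0.19, with an interval of -0.14 to 0.53, so the order of these 2 genes is not resolved. UBE2E3 at -0.71 ± 0.0834 and UBE2A at -0.53 ± 0.0683 followed in adjusted p per the authors' deposited table. UBE2W at 0.52 ± 0.0858, UBE2H at 0.43 ± 0.0872 and UBE2L6, the ISG15-conjugating enzyme, at 0.63 ± 0.161 rose in the authors' deposited table. UBE2D1, which can also prime APC/C substrates, was not listed.

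FBXO5, the inhibitor that holds the complex off until mitosis, fell to 27.2% of its DMSO level. The authors' deposited table gave it -1.88 ± 0.0785 on the log2 scale (adjusted p = 1.85e-124), with a 95% interval from -2.03 to -1.73. The coactivator CDC20 fell by 0.55 more than this inhibitor on the log2 scale (interval 0.34 to 0.75). FBXO43 (EMI2), a related inhibitor best known from the meiotic arrest of eggs, stood at -2.55 ± 0.232 per the authors' deposited table (adjusted p = 9.08e-27). It was measured less precisely than FBXO5, and the difference between them was 0.67 with an interval of 0.19 to 1.15. In the SCF ligase that destroys EMI1 in early mitosis, 3 of 5 genes fell, by less than FBXO5, where 24.0% of all tested genes were lower. The authors' deposited table put its subunits RBX1 at -0.42 ± 0.0780, CUL1 at -0.31 ± 0.0671 and SKP1 at -0.16 ± 0.0669, and the substrate receptors BTRC and FBXW11 were not listed. SKP1 did not pass at an adjusted p below 0.01 and would turn higher with a shift up by 0.3.

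PTTG1 and ESPL1, securin and the separase it restrains, fell by different amounts. ESPL1 was 6.51-fold lower, at -2.70 ± 0.0839 per the authors' deposited table (adjusted p = 7.73e-225), and kept 15.4% of its DMSO level. It had the largest fall of the 6 genes and ranked 13 by fall among the 3613 lower genes. PTTG1 was 3.75-fold lower, at -1.91 ± 0.0902 per the authors' deposited table (adjusted p = 4.13e-97), and kept 26.7%. The fall of ESPL1 exceeded that of PTTG1 by 0.80 on the log2 scale, with an interval of 0.56 to 1.04, a ratio of 1.74. PTTG1IP, which encodes a protein that binds securin, stood at -0.20 ± 0.0698 in the authors' deposited table (adjusted p = 0.0103). The near-identical securin copy PTTG2 was not listed, and the counting of reads that match both copies is not described in the sources used here.

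The 6 falls are described in 3 steps, drawn where neighbours in the order had 95% intervals without overlap. The difference between ESPL1 and CDC20, the ends of the first step, was not computed, so those genes are not shown to have equal falls. ESPL1, UBE2C and CDC20 lay between -2.70 and -2.42, and neighbours in that order had overlapping 95% intervals, with differences of 0.18 (interval -0.06 to 0.42) and 0.10 (-0.13 to 0.33). PTTG1 and FBXO5 followed with a difference of 0.03 between them (-0.21 to 0.26). CDC20 and PTTG1 were separated by 0.52 (0.29 to 0.75), and FBXO5 and UBE2S by 0.48 (0.15 to 0.81), in both cases without overlap. By size of fall, the 6 genes held ranks 13, 46, 71, 211, 220 and 395 of the lower genes in the order ESPL1, UBE2C, CDC20, PTTG1, FBXO5 and UBE2S. Thus 10.9% of the lower genes fell more than UBE2S and 0.332% more than ESPL1.

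**Figure D2:**
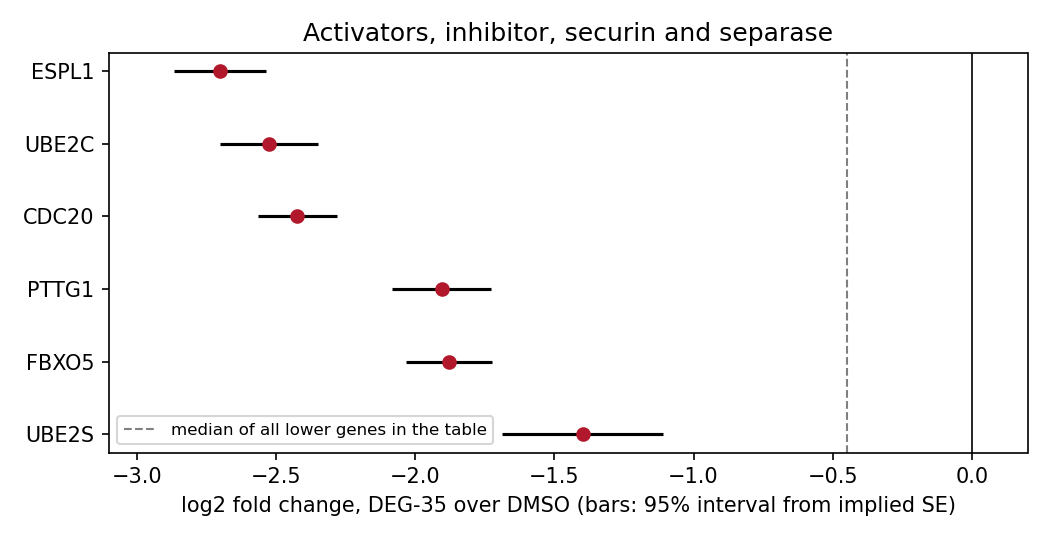
Log2 fold change of each of the 6 genes (DEG-35 over DMSO, points) with its 95% interval from the implied standard error (bars), and the median of all lower genes in the table (dashed, -0.45). The 3 steps, drawn between neighbours in the order, are ESPL1, UBE2C and CDC20 at -2.70 to -2.42, PTTG1 and FBXO5 at -1.91 and -1.88, and UBE2S at -1.40 with the widest interval.

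**Figure D3:**
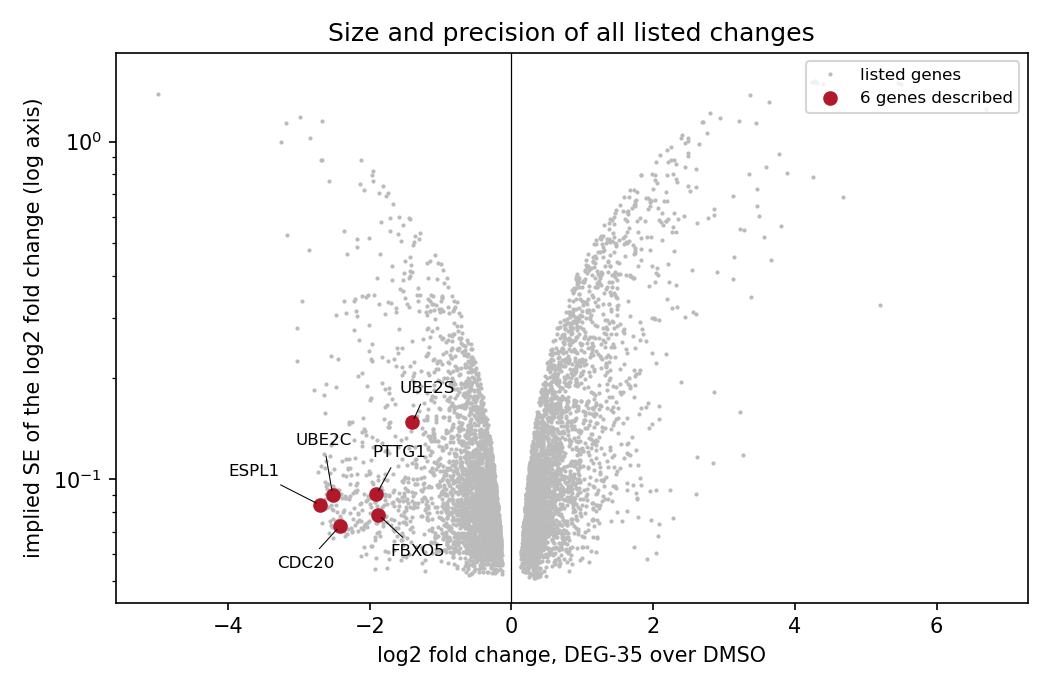
Log2 fold change (horizontal) against the implied standard error (vertical, log axis) for the genes of the authors' deposited table with a p above 0, with the 6 genes in red. CDC20, ESPL1, UBE2C, FBXO5 and PTTG1 lie among large falls with errors of 0.0726 to 0.0902, and UBE2S sits above them at 0.147. The errors of UBE2C (0.0900) and PTTG1 (0.0902) were near the medians of genes within 0.1 of their log2 fold changes, 0.0906 and 0.0915.

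Changes among the subunits of the APC/C itself were fewer and smaller than among the 6 genes. Of 14 core subunit genes, 5 fell, 1 rose and 8 were not listed, so 42.9% were listed against 45.3% of all tested genes, and none fell by 1 or more. ANAPC11, the RING subunit that receives the E2 enzymes, stood at -0.73 ± 0.112 and ANAPC15, which promotes the release of the checkpoint complex, at -0.65 ± 0.0900 per the authors' deposited table. The tetratricopeptide repeat subunits CDC23, at -0.51 ± 0.0721, and CDC27, which binds the coactivators, at -0.43 ± 0.0647, also fell per the authors' deposited table, as did the small subunit CDC26 at -0.44 ± 0.128. ANAPC16 rose by 0.28 ± 0.0633 per the authors' deposited table and would turn lower if every log2 fold change were moved down by 0.3. The platform subunits ANAPC1, ANAPC4 and ANAPC5, the cullin subunit ANAPC2, and CDC16, ANAPC7, ANAPC10 and ANAPC13 were not listed.

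Genes of the spindle checkpoint, which keeps CDC20 from the complex until all chromosomes are attached, fell together with CDC20. The list of 9 genes holds the checkpoint, regulators of it, and FBXO43, and not each of them encodes an inhibitor. Of the 9, 7 fell and 2 (MAD1L1 and MAD2L1BP) were not listed, where 24.0% of all tested genes were lower. The median of -2.31 over the 7 was close to the value for CDC20. The kinase genes TTK at -2.38 ± 0.0801 and BUB1 at -2.32 ± 0.0690 fell in the authors' deposited table. BUB1B (BUBR1) at -2.31 ± 0.0713 and MAD2L1 at -1.87 ± 0.0700, whose products bind CDC20 directly, fell per the authors' deposited table. TRIP13, an ATPase that remodels MAD2, stood at -2.16 ± 0.0793 and BUB3 at -0.55 ± 0.0556 in the authors' deposited table. CDC20 fell by 0.55 more than MAD2L1 on the log2 scale, with an interval of 0.35 to 0.75.

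Genes of cohesin, the substrate of separase, were lower as well. Of 16 genes of the ring, its loaders and its protectors, 11 fell and 5 were not listed, with a median of -1.08, where 24.0% of all tested genes were lower. With every log2 fold change moved up by 0.3, 9 of them would be lower and 2, STAG2 and PDS5A, higher. The ring genes SMC1A at -1.23 ± 0.0610, SMC3 at -1.08 ± 0.0649 and RAD21, the subunit that separase cleaves, at -0.97 ± 0.0668 fell per the authors' deposited table. The fall of ESPL1 exceeded that of RAD21 by 1.73 (interval 1.52 to 1.94) and that of SMC1A by 1.48 (1.27 to 1.68). The regulators of cohesion varied widely around the ring genes. CDCA5 (sororin), which stabilises cohesion, stood at -2.43 ± 0.0756, the acetyltransferase ESCO2 at -2.52 ± 0.0813 and SGO1 (shugoshin, matched through the older symbol SGOL1) at -2.39 ± 0.113 in the authors' deposited table. The cohesin-associated genes PDS5B, at -0.66 ± 0.0684, and PDS5A, at -0.28 ± 0.0682, fell less than the ring genes named per the authors' deposited table. The loader genes NIPBL and MAU2, the release factor WAPL, ESCO1 and HDAC8 were not listed.

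Transcripts of 20 other proteins that the APC/C marks for destruction had a median log2 fold change of -2.22, beside -2.16 for the 6 genes. All 20 substrate genes of the list fell, 19 by at least 1 and 14 by at least 2. The list does not hold every APC/C substrate and was chosen with earlier results of these data known. Its common direction therefore describes these genes only. Of all tested genes, 24.0% were lower, 4.08% by at least 1 and 1.19% by at least 2. RRM2 at -2.52 ± 0.0671, NUSAP1 at -2.34 ± 0.0678, the cyclin gene CCNA2 at -2.37 ± 0.0702 and the kinase gene PLK1 at -2.61 ± 0.0822 had the smallest adjusted p-values per the authors' deposited table. CKAP2, at -0.58 ± 0.0708 in the authors' deposited table, was the 1 gene with a fall below 1, and was picked out after its value was seen. CDC20, UBE2C and PTTG1 products are themselves APC/C substrates, so transcript falls cannot be read as protein falls from these data.

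**Figure D4:**
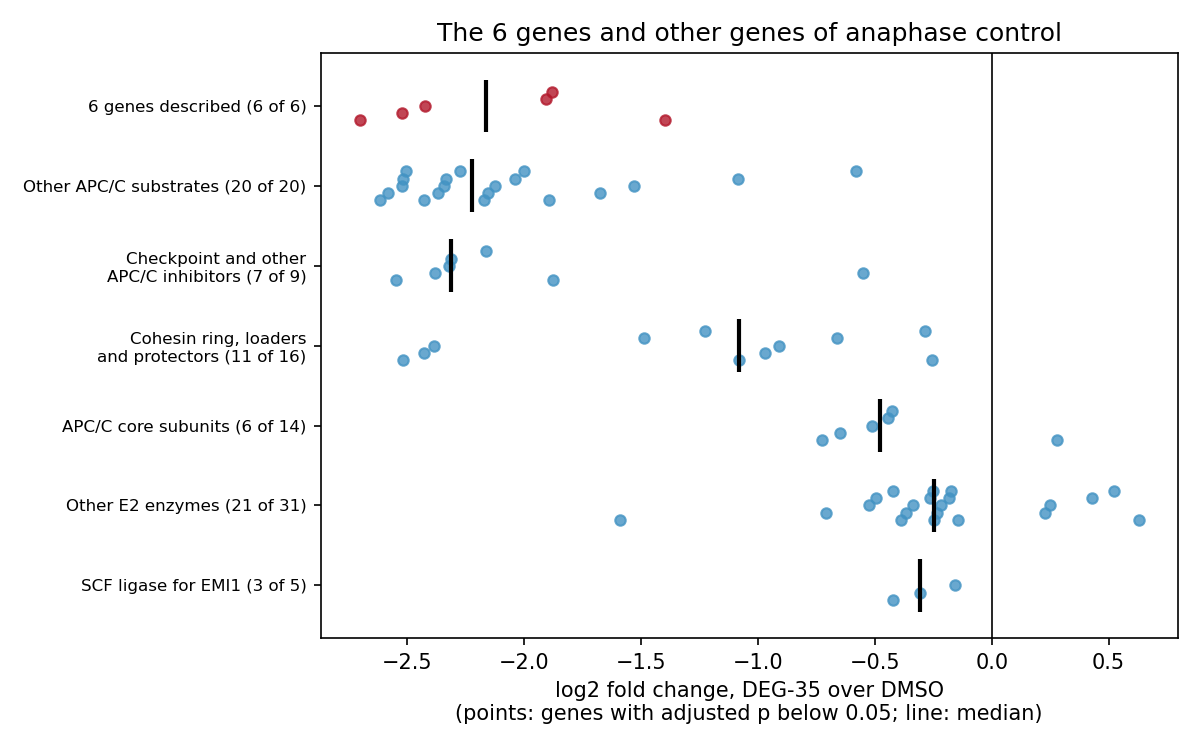
Log2 fold changes (DEG-35 over DMSO) of the genes with an adjusted p below 0.05 in 7 groups (points) with the group median (line), and in brackets how many genes of each group were listed. The 6 genes, the other substrates and the checkpoint genes centre between -2.31 and -2.16, whereas the APC/C core subunits centre at -0.48 and the other E2 enzymes at -0.25.

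The genes next to the 6 were examined because reads of adjacent genes can be assigned to either. Of 13 protein-coding genes that overlap or flank them in GENCODE release 29 on GRCh38, 10 were not listed, 3 rose and 0 fell, beside 21.4% of all tested genes that rose and 24.0% that fell, and nothing is read from so few neighbours. Besides RPL28, these were PFDN5, which follows ESPL1 on the same strand, at 0.35 ± 0.0717, and SHISA7, near UBE2S, at 0.87 ± 0.295 per the authors' deposited table. SLU7 begins 111 bases from PTTG1 on the opposite strand and ELOVL1 ends 194 bases from CDC20 on the opposite strand, and neither was listed. An antisense gene that overlaps FBXO5, AL080276.2, was not listed either. Processed pseudogenes of CDC20, UBE2C and UBE2S and the securin pseudogene PTTG3P are annotated, and none was listed.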

How the data were processed

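Per the labels' protocols, column-purified RNA went into SMARTer mRNA libraries. Names in the submitters' processing notes are STAR, featureCounts, DESeq2 and the build hg19, and no settings are given. The authors deposited 1 table, whose values are log2 fold changes and p-values, raw and adjusted, per the file headers. It was used as deposited. No adjusted p-value in it reaches 0.05, and its adjusted p times rank over p lies within 0.0413% of 15064 for the 2789 genes with a p above 1e-04, which is the pattern of Benjamini-Hochberg adjustment over that many tests. The depth of the libraries is unknown, and no per-library test could be run.

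The implied standard error is the absolute log2 fold change over the normal quantile of the two-sided p-value, which assumes a Wald test, and 95% intervals are 1.96 such errors either way. The calculation was run on data simulated under the same normal form. That checks the arithmetic only and cannot show whether the deposited p-values come from a Wald test. Members, gene lists and tests were chosen with earlier results of these data known. The rule for named genes takes the 6 members, every listed gene of the shorter lists, and for the cohesin, substrate and E2 lists the 4 smallest adjusted p-values and up to 3 genes against the majority, with neighbours and CDKN1A and MDM2. RAD21, SMC3, PDS5A, PDS5B, STAG2 and CKAP2 were named beyond it. So were FBXO48, FBXL20, FBXO44, FBXW8 and FBXO22-AS1, and some of the genes given as not listed. A gene that the rule takes is not reported here. Symbols not found were sought through RefSeq synonyms (GRCh38.p14), which matched SGO1 and SGO2. GENCODE release 29 was used for neighbours only. The software was Matplotlib 3.10.9, SciPy 1.17.1, NumPy 2.4.6 and pandas 2.3.3 under Python 3.11.15.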

Additional observations from a re-analysis of the deposited data

How the results depend on the processing

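All 6 genes were lower at an adjusted p below 0.01, with a minimum absolute log2 fold change of 1, with Bonferroni adjustment over the table or over 15064 tests, at an implied standard error of at most 0.2 and with all log2 fold changes shifted by 0.3 either way. The same held at an adjusted p below 1e-10, a limit chosen after seeing the data. These outcomes were fixed by the deposited values and are no separate support. UBE2S had the smallest fall, the largest adjusted p and the largest error, at -1.40, 4.07e-20 and 0.147. With a minimum of 2, 3 of the 6 genes were left, also by construction. With a minimum of 1, the lower genes numbered 6 of the cohesin list, 1 of the other E2 enzymes and 0 of the core subunits, of FZR1 with UBE2D1, of the SCF ligase and of PTTG2 with PTTG1IP. With the shift up by 0.3, 8 of the other E2 enzymes were lower, and 0 of PTTG2 and PTTG1IP, as was so at an adjusted p below 0.01. The shift moved the listed genes and could bring no other gene into the table. No paired analysis was possible because the table holds no values per library, and for the same reason leaving out single libraries was not run.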

Other observations

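Other F-box genes of the table moved in both directions. Of 25 further genes of the table whose symbols begin with FBXO, FBXL or FBXW, a set taken after the values had been seen, 18 rose and 7 fell, and their median log2 fold change was 0.37. Over all listed genes, 3218 rose and 3613 fell, with a median of -0.19, and how many F-box genes had been tested is unknown. One of them, FBXO22-AS1, is an antisense gene. F-box genes with other symbols were not sought, so the directions of the whole family are not given. Among the 25, FBXO43 and FBXO48 were the genes with a fall of at least 1, the latter at -1.01 ± 0.313 in the authors' deposited table. FBXL20 at 0.82 ± 0.0880, FBXO44 at 1.17 ± 0.143 and FBXW8 at 0.53 ± 0.0723 had the smallest adjusted p-values among those that rose in the authors' deposited table.

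The CHR and CCAAT letters found in CDC20, ESPL1 and FBXO5 stood together in 6.38% of all RefSeq promoter windows. Among 164 windows of genes with a fall of at least 2, CDC20 and ESPL1 included, 25.6% held both, against 15.8% of 622 windows of genes with a fall of at least 1 and 5.73% of 558 windows of genes with a rise of at least 1. The E2F letters, in 0 of 7 windows of the genes described above, were in 18.9%, 15.0% and 3.23% of these sets. These shares are descriptions, with no test, and windows of the same gene can overlap. The 164 windows are part of the 622, which also hold those of FBXO5, PTTG1 and UBE2S. Windows were matched for 128 of 179 genes with a fall of at least 2 and 443 of 614 with a fall of at least 1.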
